A study of Mus musculus with 18 samples.

Results

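The 10 genes described here encode the machinery that loads peptides onto MHC class II molecules, the surface receptors that show antigen to CD4 T cells. They were chosen by symbol from the 21015 genes of a table of estimated counts: H2-Aa, H2-Ab1, H2-Eb1, Cd74, Ciita, H2-DMa, H2-DMb1, H2-DMb2, H2-Oa and H2-Ob. All 10 were in the table, and all 10 were among the 16125 genes that passed the filter on low counts. The counts came from bulk RNA sequencing of MC38-OVA tumours, which come from a colon carcinoma line of the mouse that carries ovalbumin as a model antigen. The tumours grew in Adra2a KO or wild-type (WT) mice, and Adra2a encodes a receptor for noradrenaline on which clonidine and guanabenz act. The 18 libraries form 6 groups of 3, which are KO-Clonidine, KO-Guanabenz and KO-Control in hosts without Adra2a, and WT-Clonidine, WT-Guanabenz and WT-Control in hosts with it. Drug or PBS was injected into the peritoneum each day, doses are not given, mice are labelled as 10 weeks old, and tumours were taken 7 days after treatment. Control libraries came from PBS mice and carry the treatment entry Untreated. The 3 KO-Guanabenz libraries carry that entry as well, against their titles, and they were grouped by title.

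Every group shares the tumour line, and only host cells lack Adra2a, since the labels describe no change to the gene in the tumour cells. How many mice or separate tumours stand behind a library is not given, so p-values measure the spread between libraries, which may be technical in part. Adra2a itself was low, at 0.0917 to 0.293 CPM (counts per 1e6 counts) in the 9 KO libraries and 0.286 to 0.589 CPM in the 9 WT libraries, and fell by 1.22 on the log2 scale (SE 0.2, edgeR adjusted p = 0.016) in KO against WT over all treatments. The deleted stretch of the gene is not given, so this checks the labels only as far as remaining transcript can. Library totals ran from 54.7 to 491.1 in units of 1e6. Ptprc, which encodes the leukocyte surface protein CD45, had 114 to 177 CPM. The epithelial markers Epcam, Krt8, Krt18 and Krt19 summed to 0.616 to 3.00 CPM, so the labelled carcinoma is not marked by them in these libraries.

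MHC class II molecules are heterodimers of an alpha and a beta chain. In the endoplasmic reticulum they bind the invariant chain, which guides them to endosomes and blocks the peptide groove. There the chaperone H2-DM exchanges the last fragment of the invariant chain for antigen peptides, and H2-DO restrains H2-DM. Dendritic cells, B cells and macrophages express the pathway constitutively, and interferon gamma induces it in many other cells through the transactivator CIITA. CIITA does not bind DNA itself and joins factors that sit on the X and Y boxes of class II promoters.

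Promoters are shown because these boxes are the landing site of the factor encoded by Ciita, a member itself. RefSeq windows on GRCm38.p6, from 250 bases before to 50 bases after an annotated start, were found for 7 of the 10 members. For H2-DMb2 and for both windows of H2-DMa that start lies inside the gene span, not at its outer end. Printed from 5′ to 3′ are 4 windows, with X box and Y box matches in capitals. They belong to H2-Eb1 (chr17:34305617-34305916, plus strand), H2-Aa (chr17:34287774-34288073, minus strand), H2-DMb1 (chr17:34152941-34153240, plus strand) and H2-DMb2 (chr17:34144999-34145298, plus strand).
H2-Eb1: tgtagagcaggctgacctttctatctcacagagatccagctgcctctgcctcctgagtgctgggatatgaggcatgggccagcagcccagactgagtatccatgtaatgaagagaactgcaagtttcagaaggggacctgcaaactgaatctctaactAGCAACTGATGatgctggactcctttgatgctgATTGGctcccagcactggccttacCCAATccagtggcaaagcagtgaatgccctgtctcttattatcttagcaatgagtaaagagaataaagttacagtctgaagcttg
H2-Aa: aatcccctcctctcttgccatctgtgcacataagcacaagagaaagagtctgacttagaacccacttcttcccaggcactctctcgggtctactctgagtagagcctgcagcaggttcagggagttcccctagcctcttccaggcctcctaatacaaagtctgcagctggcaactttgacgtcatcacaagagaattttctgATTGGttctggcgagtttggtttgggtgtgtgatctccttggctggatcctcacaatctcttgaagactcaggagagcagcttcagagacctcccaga
H2-DMb1: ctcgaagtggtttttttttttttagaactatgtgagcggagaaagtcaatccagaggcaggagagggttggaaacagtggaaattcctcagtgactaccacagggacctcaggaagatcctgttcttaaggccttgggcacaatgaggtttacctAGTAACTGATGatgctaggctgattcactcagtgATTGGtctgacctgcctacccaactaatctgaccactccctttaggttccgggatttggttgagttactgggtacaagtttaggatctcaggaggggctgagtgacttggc
H2-DMb2: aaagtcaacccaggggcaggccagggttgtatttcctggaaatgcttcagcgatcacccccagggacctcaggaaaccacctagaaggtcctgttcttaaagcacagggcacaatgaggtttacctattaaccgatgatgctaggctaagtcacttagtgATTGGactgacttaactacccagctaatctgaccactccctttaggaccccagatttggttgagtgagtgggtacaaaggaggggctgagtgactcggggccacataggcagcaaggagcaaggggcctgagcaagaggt

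The Y box letters ATTGG, searched on both strands, occurred in a window of each of the 7 members, against 37.4% of the 32817 windows of all genes. H2-DMa has 2 windows, 1 of them with the Y box. A consensus for the X box, searched in the same way, matched in H2-DMb1 (AGTAACTGATG) and in H2-Eb1 (AGCAACTGATG), and in 1.19% of all windows. In these 2 members 23 bases (H2-DMb1) and 22 bases (H2-Eb1) lay between the X box and the Y box, and a window with both occurred in 0.384% of all. The H2-DMb2 window held the Y box but no full match to the X box consensus, although H2-DMb2 is the near copy of H2-DMb1. Where H2-DMb1 has its match, the H2-DMb2 window reads attaaccgatg, which departs from the consensus in 1 letter. Near matches were not searched for, so the lack of a match does not show that a member lacks an X box. The gamma activated site TTCNNNGAA occurred in H2-DMb2 (as TTCCTGGAA) and in 8.29% of all windows. A match says only that the letters are there, and none of these motifs overlapped another in the windows printed.

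The 8 H2 genes sit together in the MHC region, between H2-Oa (chr17:34092379-34095234) and H2-Eb1 (chr17:34305867-34316674) on GRCm38. H2-DMb2 (chr17:34143229-34151553) and H2-DMb1 (chr17:34153191-34160229) are neighbours there. Ciita lies on another chromosome (chr16:10480014-10531064), and so does Cd74 (chr18:60803849-60812652). The GENCODE protein-coding transcripts of H2-DMb1 share 37.6% of their 31-base words with those of H2-DMb2, and those of H2-DMb2 share 29.7% with H2-DMb1. The counting tool, kallisto, divides reads that fit both, so the split of reads between these 2 genes is uncertain. The next closest pair, H2-Ab1 and H2-Eb1, shared 0.564% of the words of H2-Ab1.

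Levels per length, in CPM per kb of the longest GENCODE protein-coding mRNA and averaged over the 18 libraries, spanned a wide range within the pathway. Cd74, which encodes the invariant chain, was the highest at 583 ± 264 CPM per kb (SD, n = 18 libraries over all groups). The alpha and beta chain genes of the I-A molecule followed, H2-Aa at 301 ± 139 and H2-Ab1 at 278 ± 124 CPM per kb, and H2-Aa was the higher of the pair in 16 of the 18 libraries. H2-Eb1, the beta chain gene of the I-E molecule, had 192 ± 92.6 CPM per kb. The genes of the H2-DM chaperone were lower, with H2-DMb1 at 38.4 ± 10.3, H2-DMa at 28.6 ± 4.69 and H2-DMb2 at 3.32 ± 0.442 CPM per kb. The transactivator gene Ciita had 2.43 ± 1.02 CPM per kb. The genes of H2-DO, the inhibitor of H2-DM, were the lowest, with H2-Ob at 1.41 ± 0.303 and H2-Oa at 0.598 ± 0.144 CPM per kb. Each gene exceeded the next in this order in all 18 libraries, apart from H2-Aa over H2-Ab1, H2-DMb2 over Ciita and Ciita over H2-Ob, which held in 16 of 18 each. H2-Oa rested on 19 to 292 counts per library and H2-Aa on 9468 to 191399, so counting error bears on H2-Oa far more than on the chains.

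H2-Ea encodes the alpha chain that pairs with the product of H2-Eb1, and some mouse haplotypes do not express it. It had 12 counts in all 18 libraries together, at most 3 in any library (0.0184 CPM), and 0 in 8 of them. H2-Eb1 had 153 to 748 CPM in the same libraries, while H2-Eb2, a second beta chain gene, had 0.156 to 0.653 CPM.

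Class II levels differed widely between libraries, also within groups. Over all groups the highest library over the lowest was 4.88-fold for H2-Eb1, 4.66-fold for H2-Aa, 4.54-fold for Ciita, 4.49-fold for Cd74 and 4.33-fold for H2-Ab1. It was smaller for H2-Oa at 3.07-fold, H2-DMb1 at 2.40-fold, H2-Ob at 2.13-fold, H2-DMa at 1.79-fold and H2-DMb2 at 1.78-fold. Within groups, the median coefficient of variation was 34.5% for H2-Aa, 36.1% for Ciita and 9.29% for H2-DMb2. Summed over the 10 members, KO-Guanabenz 2 was the highest library at 4308 CPM and KO-Clonidine 1 the lowest at 995 CPM. WT-Guanabenz alone covered most of that range, with 1063, 2084 and 3259 CPM.

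**Figure D1:**
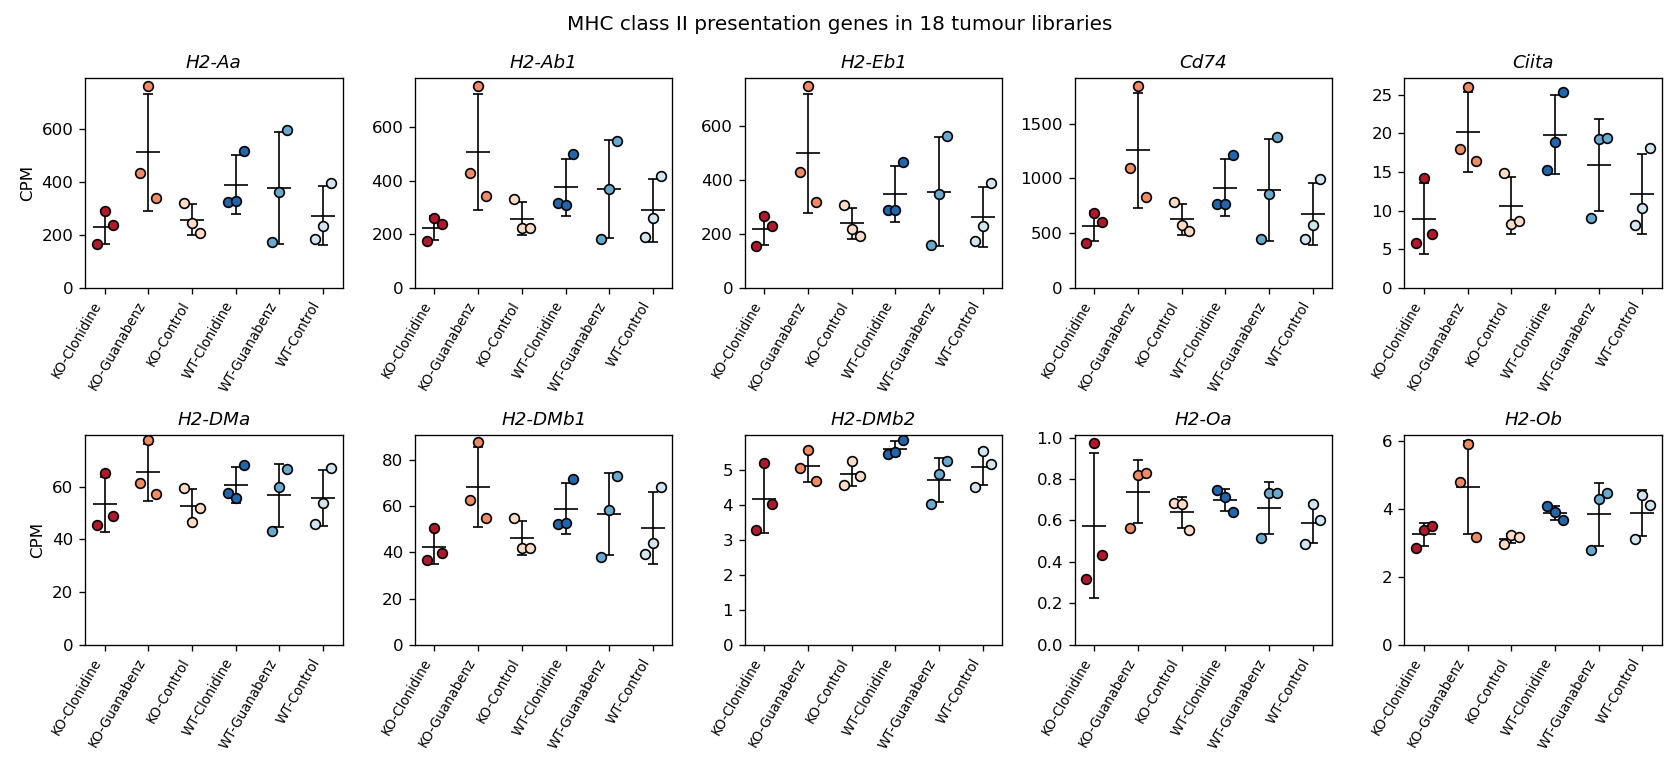
Level of each of the 10 class II genes in the 18 libraries, in CPM on a linear axis from 0, by group; points are libraries, long ticks are group means and error bars are 1 SD (n = 3). KO-Guanabenz 2 is the highest library for 8 of the 10 genes, whereas H2-DMb2 stays between 3.28 and 5.86 CPM.

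The chains and the invariant chain kept a nearly fixed proportion to each other while their level varied. Cd74 over H2-Aa, as a ratio of CPM, lay between 2.33 and 2.58 in all 18 libraries, with a coefficient of variation of 3.34%. H2-Eb1 over H2-Aa lay between 0.874 and 0.989, and H2-Ab1 over H2-Aa between 0.903 and 1.11. The H2-DM genes did not scale in the same way. H2-DMa over H2-Aa ran from 0.102 in KO-Guanabenz 2 to 0.280 in KO-Clonidine 1, the libraries with the highest and the lowest chain levels. H2-DMb1 over H2-Aa ran from 0.116 to 0.225, with the same 2 libraries at the ends. Ciita over H2-Aa ran from 0.0290 in KO-Clonidine 3 to 0.0574 in WT-Clonidine 2.

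**Figure D2:**
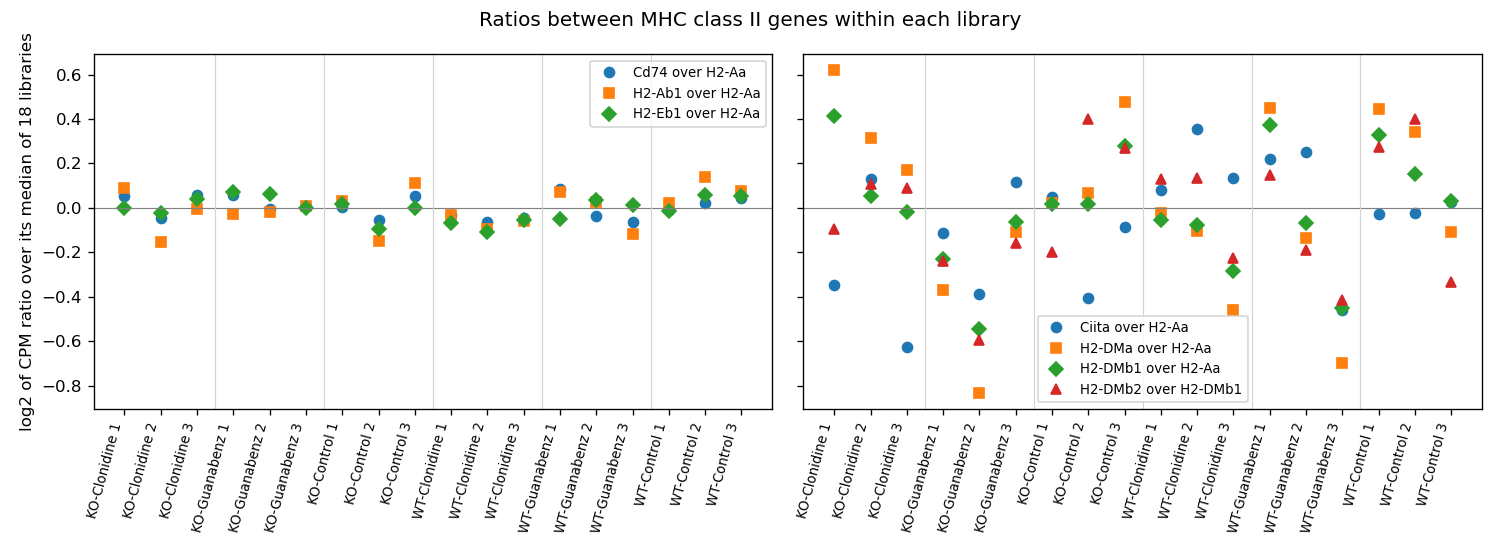
Ratios of CPM within each of the 18 libraries, as log2 of the ratio over its median across libraries; the left panel holds Cd74, H2-Ab1 and H2-Eb1 over H2-Aa, the right panel Ciita, H2-DMa and H2-DMb1 over H2-Aa and H2-DMb2 over H2-DMb1. The left panel stays close to 0, whereas in the right panel H2-DMa over H2-Aa is lowest in KO-Guanabenz 2 (ratio 0.102) and highest in KO-Clonidine 1 (ratio 0.280).

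Across the 18 libraries the 6 pairs among H2-Aa, H2-Ab1, H2-Eb1 and Cd74 had Pearson r of 0.99 to 1.0 on log2 CPM. Ciita had r of 0.89 to 0.91 with them, and of 0.87 to 0.88 once group means were removed. H2-DMa and H2-DMb1 had r of 0.92 to 0.99 with the chains and Cd74. The 24 pairs that include H2-DMb2, H2-Oa or H2-Ob were looser, with r of 0.42 to 0.80. These are descriptions over libraries that share groups and tumour line. Because members vary together, counts of members in the comparisons below are not counts of separate observations. H2-Aa had r of 0.21 (Spearman 0.24) with the library total on the log scale.

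Of all other tested genes, the 5 most like the mean of the members over the 18 libraries were Fcho1 (r 0.90, Spearman 0.89), Unc13d (r 0.87, Spearman 0.88), Dnaaf3 (r 0.87, Spearman 0.91), Dnase1l3 (r 0.87, Spearman 0.87) and Cxcl9 (r 0.87, Spearman 0.89). Cxcl9 encodes a chemokine induced by interferon gamma and had 32.6 to 127 CPM. Unc13d encodes a factor of cytotoxic granule release, Dnase1l3 a secreted DNase of myeloid cells, and Fcho1 a protein of clathrin coated pits. Fcho1 had r over 0.8 with 8 of the 10 members, Cxcl9 with 7, and Unc13d, Dnaaf3 and Dnase1l3 with 6 each.

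**Figure D3:**
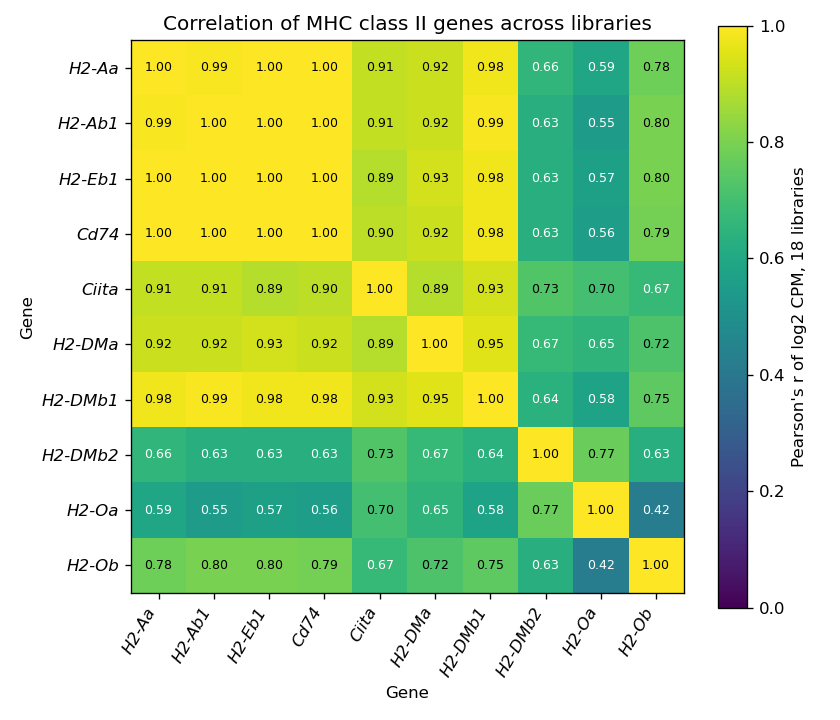
Pearson r of log2 CPM over the 18 libraries between the 10 class II genes; colour and printed values give r. The chains and Cd74 form a block at 0.99 to 1.0, and H2-DMb2, H2-Oa and H2-Ob stand apart from it.

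Class II genes are carried mainly by immune cells, so marker genes of those cells were read in the same libraries. In bulk tissue, fewer cells of a type and less class II RNA per cell cannot be told apart. Over the 18 libraries H2-Aa had r of 0.78 (Spearman 0.72) with the summed CPM of 5 T cell markers and 0.70 (Spearman 0.73) with that of 7 conventional dendritic cell markers. It had r of 0.69 (Spearman 0.66) with Ptprc, 0.54 (Spearman 0.52) with 7 B cell markers and 0.30 (Spearman 0.37) with 9 macrophage and monocyte markers. The macrophage markers were abundant, at 3380 to 4378 summed CPM, and this sum differed little between libraries, while H2-Aa differed 4.66-fold. C1qa, C1qb and C1qc weighed most in the sum, which says little of the less abundant markers. Of these, Mrc1 ran from 182 to 342 CPM and Ccr2 from 15.0 to 44.0 CPM. The B cell markers summed to 4.26 to 8.31 CPM. Among the dendritic cell markers Itgax weighed most in the sum, at 12.3 to 35.9 CPM. Zbtb46 had 6.78 to 10.5 CPM and Clec9a 4.16 to 7.16 CPM. Correlations of H2-Aa with single dendritic cell markers are not given here. The other cell type marker lists had r with H2-Aa from -0.09 for fibroblast markers to 0.50 for neutrophil markers (Spearman -0.10 and 0.46).

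**Figure D4:**
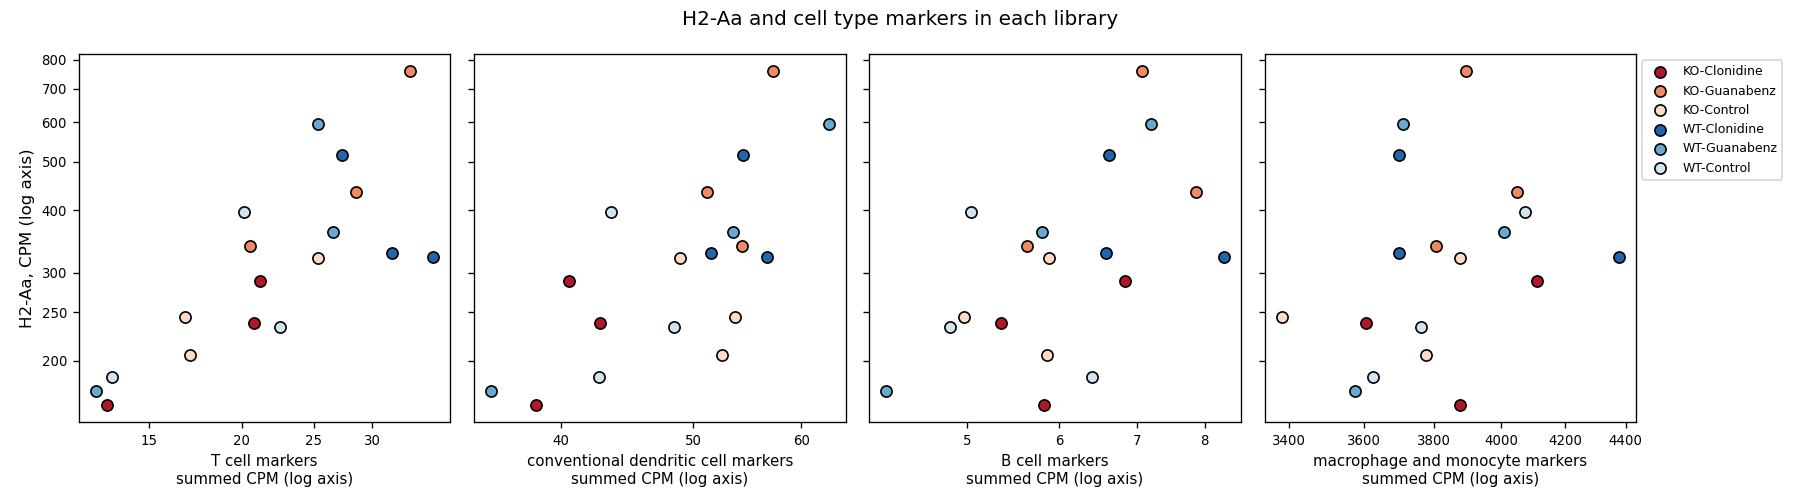
H2-Aa in CPM against the summed CPM of markers of T cells, conventional dendritic cells, B cells, and macrophages and monocytes, on log axes; each point is 1 of the 18 libraries. H2-Aa is higher along the T cell and dendritic cell axes, with r of 0.78 and 0.70, and shows little relation to the macrophage axis, with r of 0.30. Itgax weighs most in the dendritic cell sum, and C1qa, C1qb and C1qc weigh most in the macrophage sum.

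Whether clonidine changes the class II genes in hosts with the receptor was asked by setting WT-Clonidine against WT-Control. H2-Aa had 322, 329 and 517 CPM in WT-Clonidine, against 185, 234 and 396 CPM in WT-Control. Cd74 had 765, 766 and 1216 CPM in WT-Clonidine, against 448, 578 and 993 CPM in WT-Control. Ciita had 15.2, 18.9 and 25.4 CPM in WT-Clonidine, against 8.15, 10.3 and 18.1 CPM in WT-Control. In each of these genes the groups overlapped, because WT-Control 3 exceeded at least 1 WT-Clonidine library. All 10 members had log2 differences above 0, with a median of 0.31 and a range of 0.01 to 0.69, while 50.8% of all tested genes were above 0. The median over all tested genes lay between -0.01 and 0.01 in this and every other comparison. Ciita had the highest, at 0.69 (SE 0.37, 95% interval -0.10 to 1.48, edgeR adjusted p = 0.45), and H2-Aa had 0.52 (SE 0.39, edgeR adjusted p = 0.62).

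By edgeR's quasi-likelihood test with Benjamini-Hochberg adjustment over all genes, called at an adjusted p under 0.05, 0 of the 10 members changed in WT-Clonidine against WT-Control, where 0% of all tested genes were called. None passed an unadjusted p of 0.05 either, against 12.9% of all genes, and none was called by DESeq2 (2.55% of genes) or by limma voom (4.79%). The groups overlapped for every member, against 11.1% of all genes that lay wholly higher in WT-Clonidine. The median of the members was 0.62 without WT-Control 3 and 0.12 without WT-Clonidine 3. T cell markers summed to 27.3 to 36.2 CPM in WT-Clonidine and 13.4 to 22.5 CPM in WT-Control, with all 5 of the list above 0 and 5 at an unadjusted p under 0.05. Dendritic cell markers summed to 51.5 to 56.6 CPM in WT-Clonidine and 42.6 to 48.4 CPM in WT-Control. Their part in the class II difference was not tested.

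Guanabenz in WT hosts gave a wider spread. H2-Aa had 174, 362 and 594 CPM in WT-Guanabenz, against 185, 234 and 396 CPM in WT-Control. The WT-Guanabenz libraries lay on both sides of the WT-Control range. Of the members 8 had log2 differences above 0 and 2 below 0, with a median of 0.26, and 52.2% of all genes were above 0. H2-Eb1 stood at 0.44 (SE 0.41) and H2-DMb2 at -0.10 (SE 0.15). By edgeR 0 members were called, with 0% of all genes called, and 0 reached an unadjusted p of 0.05 against 11.4% of all genes. DESeq2 and limma voom called 0 members as well, against 1.38% and 0.0372% of genes. The median was 0.58 without WT-Control 3 and -0.06 without WT-Guanabenz 3, so its direction rests on single libraries.

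Clonidine and guanabenz, both agonists of the receptor and related in structure by a dichlorophenyl ring joined to a guanidine-type group, were compared at doses that are not given. H2-DMb2 had 5.46, 5.51 and 5.86 CPM in WT-Clonidine, against 4.03, 4.89 and 5.25 CPM in WT-Guanabenz, and was the only member whose groups did not overlap, where 5.33% of all genes lay wholly higher in WT-Clonidine. Its log2 difference was 0.24 (SE 0.15, 95% interval -0.07 to 0.56, edgeR adjusted p = 0.96). Ciita differed by 0.31 (SE 0.37, 95% interval -0.48 to 1.10, edgeR adjusted p = 0.98). By edgeR 0 members were called, with 0% of all genes called, 0 had an unadjusted p under 0.05 against 5.05% of genes, and DESeq2 (0.0248% of genes) and limma voom (0.0062%) called 0. The intervals leave room for differences of either sign, so the drugs are not shown to act alike on these genes.

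In KO hosts each drug was set against KO-Control, and the drugs were not compared with each other there. H2-Aa stood at 163, 289 and 238 CPM in KO-Clonidine, against 321, 245 and 205 CPM in KO-Control. Cd74 had 410.5, 681 and 601 CPM in KO-Clonidine, against 783, 574 and 518 CPM in KO-Control. The groups overlapped in both genes. Of the members 8 had log2 differences below 0 and 2 above, with a median of -0.14 and a range of -0.23 to 0.06, against 50.3% of all genes above 0. No member was called by edgeR (0.0186% of all genes), by DESeq2 (0.18%) or by limma voom (0.0186%), and 0 reached an unadjusted p of 0.05 against 5.52% of genes. With the KO-Guanabenz libraries counted as KO-Control, as their treatment entry has it, the median was -0.59. The median was 0.04 without KO-Clonidine 1 and -0.32 without KO-Clonidine 2. Dendritic cell markers summed to 38.3 to 42.7 CPM in KO-Clonidine and 48.9 to 53.7 CPM in KO-Control, with 2 of the 7 genes above 0 and 5 below. The gap in the sum came from Itgax, at 17.4, 14.5 and 22.7 CPM in KO-Clonidine, against 25.1, 33.1 and 27.1 CPM in KO-Control, the only gene of that list at an unadjusted p under 0.05.

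KO-Guanabenz, a group known by its titles and entered under treatment as Untreated, had the highest group mean for all members but H2-DMb2, and for Ciita it was close to WT-Clonidine (20.2 ± 5.16 CPM in KO-Guanabenz and 19.8 ± 5.16 CPM in WT-Clonidine, SD, n = 3 each). H2-Aa had 434, 760.0 and 339 CPM in KO-Guanabenz, against 321, 245 and 205 CPM in KO-Control. H2-Ab1 had 428, 753 and 341 CPM in KO-Guanabenz, against 329, 222 and 222 CPM in KO-Control. H2-Eb1 had 429.6, 748 and 319 CPM in KO-Guanabenz, against 306, 216 and 194 CPM in KO-Control. All 3 chain genes were higher in every KO-Guanabenz library than in any KO-Control library, although KO-Guanabenz 3 stood only just above KO-Control 1. Cd74 had 1098, 1842 and 829 CPM in KO-Guanabenz, against 783, 574 and 518 CPM in KO-Control. Ciita had 18.0, 26.0 and 16.4 CPM in KO-Guanabenz, against 14.9, 8.28 and 8.66 CPM in KO-Control. These 2 genes did not overlap either. The non-overlapping members were therefore 5 of 10, where 9.09% of all genes lay wholly higher in KO-Guanabenz. These 5 genes vary together over the libraries, so they are not 5 separate observations.

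On the log2 scale the chain genes differed by 0.99 for H2-Aa (SE 0.40, 95% interval 0.15 to 1.83), 0.98 for H2-Ab1 (SE 0.37) and 1.06 for H2-Eb1 (SE 0.41). Cd74 differed by 1.01 (SE 0.38, 95% interval 0.20 to 1.81) and Ciita by 0.93 (SE 0.38, 95% interval 0.13 to 1.73). Of the H2-DM genes, H2-DMb1 differed by 0.57 (SE 0.25), H2-DMa by 0.31 (SE 0.18) and H2-DMb2 by 0.06 (SE 0.15). H2-Ob had 4.79, 5.90 and 3.18 CPM in KO-Guanabenz, against 2.96, 3.22 and 3.15 CPM in KO-Control, and differed by 0.57 (SE 0.21). Its groups overlapped by a narrow margin, through KO-Guanabenz 3. Its partner H2-Oa differed by 0.22 (SE 0.32).

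None of these differences passed the adjusted threshold. By edgeR 0 of 10 members were called, where 0.0124% of all genes were, and the smallest adjusted p among the members was 0.22, for H2-Ob. At an unadjusted p under 0.05, 7 members were higher (H2-Aa, H2-Ab1, H2-Eb1, Cd74, Ciita, H2-DMb1 and H2-Ob), against 6.74% of all genes. DESeq2 and limma voom called 0 members, against 3.69% and 2.13% of genes. All 10 members had log2 differences above 0, against 48.7% of all genes. The median over the 10 members was 0.75, against -0.01 over all tested genes, and it was 0.46 without KO-Guanabenz 2. T cell markers summed to 20.5 to 33.7 CPM in KO-Guanabenz and 16.8 to 25.3 CPM in KO-Control, and dendritic cell markers to 51.2 to 57.2 CPM in KO-Guanabenz and 48.9 to 53.7 CPM in KO-Control, with 3 of the 7 above 0. Ptprc had 148 to 175 CPM in KO-Guanabenz and 116 to 129 CPM in KO-Control, which did not overlap. The part of these cells in the class II difference was not tested.

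**Figure D5:**
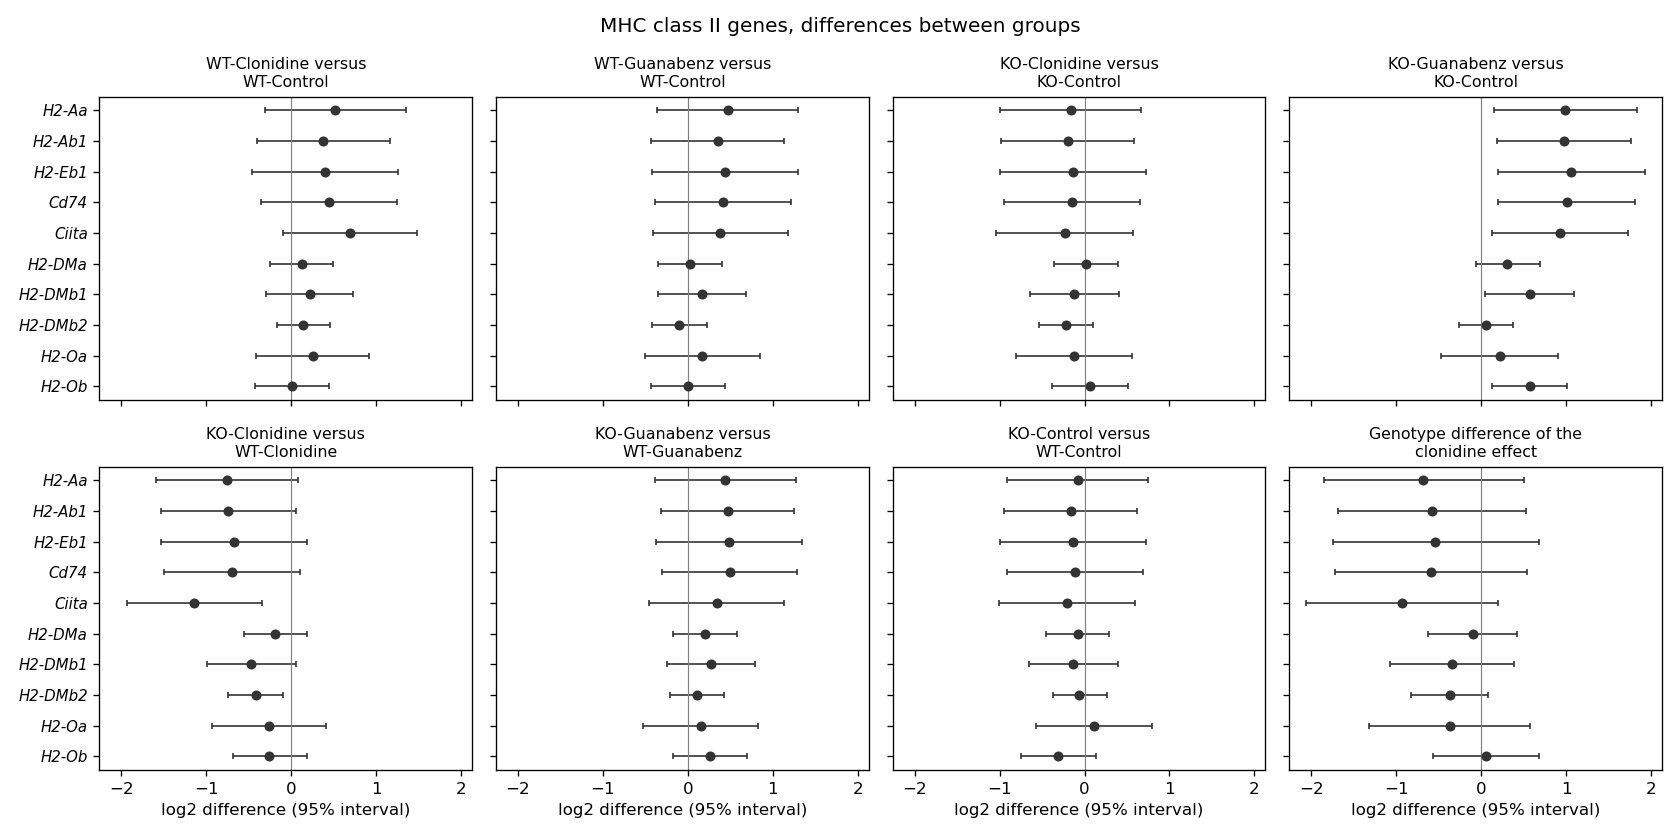
Log2 difference of each class II gene in 8 comparisons, 1 per panel, with 95% intervals from the edgeR fit; the line at 0 marks no difference. In KO-Guanabenz against KO-Control 7 of the 10 intervals lie above 0, and in KO-Clonidine against WT-Clonidine the intervals of Ciita and H2-DMb2 lie below 0.

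Under PBS the class II levels of KO and WT hosts overlapped. H2-Aa had 321, 245 and 205 CPM in KO-Control, against 185, 234 and 396 CPM in WT-Control, with KO-Control lying inside the WT-Control range. Of the members 9 had log2 differences below 0 and 1 above, with a median of -0.12, against 50.1% of all genes above 0. No member was called by edgeR (0.0062% of all genes), DESeq2 (0.106%) or limma voom (0.0062%), and 0 had an unadjusted p under 0.05 against 3.68% of genes. The median was 0.17 without WT-Control 3, and 0.27 with the KO-Guanabenz libraries counted as KO-Control.

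Under clonidine all 10 class II genes had a lower group mean in KO hosts than in WT hosts, and none passed the adjusted edgeR test. H2-Aa had 163, 289 and 238 CPM in KO-Clonidine, against 322, 329 and 517 CPM in WT-Clonidine. Ciita had 5.74, 14.2 and 6.90 CPM in KO-Clonidine, against 15.2, 18.9 and 25.4 CPM in WT-Clonidine. H2-DMb2 had 3.28, 5.20 and 4.03 CPM in KO-Clonidine, against 5.46, 5.51 and 5.86 CPM in WT-Clonidine. In all 3 genes every KO-Clonidine library was below every WT-Clonidine library, and KO-Clonidine 2 came closest. Groups did not overlap for 8 members, all but H2-DMa and H2-Oa, where 12.8% of all genes lay wholly lower in KO-Clonidine. Most of these members vary together over the libraries, so they are not 8 separate observations. All 10 log2 differences were below 0, with a median of -0.58 and a range of -1.14 to -0.19, while 48.3% of all genes were above 0.

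Ciita had the greatest of these differences, at -1.14 (SE 0.38, 95% interval -1.94 to -0.34, edgeR adjusted p = 0.11). H2-DMb2 followed by p, at -0.42 (SE 0.15, edgeR adjusted p = 0.13). The chains and Cd74 stood at -0.76 for H2-Aa (SE 0.39), -0.74 for H2-Ab1 (SE 0.37), -0.68 for H2-Eb1 (SE 0.41) and -0.70 for Cd74 (SE 0.38). H2-DMb1 stood at -0.47 (SE 0.25), H2-Ob at -0.26 (SE 0.21), H2-Oa at -0.26 (SE 0.32) and H2-DMa at -0.19 (SE 0.18). By edgeR 0 members were called, where 2.5% of all genes were, and 2 members, Ciita and H2-DMb2, were lower at an unadjusted p under 0.05 against 8.48% of genes. DESeq2 called 0 of them (8.43% of genes), while limma voom with quality weights called both (7.85% of genes). The edgeR fit also called both without KO-Clonidine 2. T cell markers summed to 13.1 to 21.2 CPM in KO-Clonidine and 27.3 to 36.2 CPM in WT-Clonidine, and 4 of the 5 were lower at an unadjusted p under 0.05 with 0 called by edgeR. Dendritic cell markers summed to 38.3 to 42.7 CPM in KO-Clonidine and 51.5 to 56.6 CPM in WT-Clonidine, with 5 of 7 lower at that level and 0 called. Macrophage markers overlapped, at 3608 to 4110 CPM in KO-Clonidine and 3697 to 4378 CPM in WT-Clonidine. Ptprc had 121 to 131 CPM in KO-Clonidine and 161 to 177 CPM in WT-Clonidine, which did not overlap, and differed by -0.41 (SE 0.11, edgeR adjusted p = 0.056). The part of these cells in the class II difference was not tested.

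Whether the effect of clonidine differs between genotypes was tested directly as a difference of differences, and it shares its control libraries with the comparisons above. Ciita gave -0.93 (SE 0.53, 95% interval -2.06 to 0.20, edgeR adjusted p = 0.64) and H2-Aa gave -0.68 (SE 0.56, 95% interval -1.85 to 0.50, edgeR adjusted p = 0.75). Of the members 9 were below 0 and 1, H2-Ob at 0.06 (SE 0.29), above, with a median of -0.45 against 49.3% of all genes above 0. That median was -0.78 without WT-Control 3, -0.29 without KO-Clonidine 1 and -0.90 with the KO-Guanabenz libraries counted as KO-Control. By edgeR 0 members were called (0% of all genes), 0 had an unadjusted p under 0.05 against 8.94% of genes, and DESeq2 (0.23% of genes) and limma voom (0.0124%) called 0. The test therefore does not show an effect of clonidine on the class II genes that depends on genotype.

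The same test for guanabenz, with KO-Guanabenz taken by title against its treatment entry, gave 0.60 for Cd74 (SE 0.53), 0.55 for Ciita (SE 0.53), 0.52 for H2-Aa (SE 0.55) and 0.57 for H2-Ob (SE 0.29, 95% interval -0.05 to 1.20, edgeR adjusted p = 0.88). All 10 members were above 0, with a median of 0.53 against 47.7% of all genes above 0. By edgeR 0 members were called (0.0062% of all genes), 0 had an unadjusted p under 0.05 against 5.71% of genes, and DESeq2 (0.0807% of genes) and limma voom (0.0124%) called 0. The median was 0.15 without WT-Control 3. KO-Guanabenz against WT-Guanabenz gave a median of 0.30 with all 10 above 0, against 48.3% of genes. There 0 members were called by edgeR (0.0186% of genes), DESeq2 (0.158%) or limma voom (0.0124%), and 0 had an unadjusted p under 0.05 against 8.16% of genes. That median was 0.06 without KO-Guanabenz 2. Averaged over the 3 treatments, KO against WT gave a median of -0.11 with 0 members called by edgeR (0.416% of genes), DESeq2 (4.54%) or limma voom (2.24%). None had an unadjusted p under 0.05, against 17.4% of genes, and 47.7% of genes were above 0. This median was -0.21 without KO-Guanabenz 2 and 0.01 without WT-Guanabenz 3.

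Other genes of the pathway were read from a list of 30 in the table, of which 29 passed the filter. They cover the RFX and NF-Y factors of the X and Y boxes, the interferon gamma route to Ciita, endosomal proteases, surface turnover, and the receptors and costimulators that meet class II on T cells. In KO-Guanabenz against KO-Control 8 of the 29 were higher and 0 lower at an unadjusted p under 0.05, with 0 called by edgeR, where 6.74% of all genes were higher at that level and 0.0124% were called. Of the interferon gamma route, the smallest p were those of Jak2, its receptor kinase, at 0.23 (SE 0.07, edgeR adjusted p = 0.15), and Socs1, its feedback inhibitor, at 0.29 (SE 0.09, edgeR adjusted p = 0.16). Jak2 had 82.1, 90.3 and 86.8 CPM in KO-Guanabenz, against 72.7, 75.9 and 72.9 CPM in KO-Control. Socs1 had 19.0, 21.6 and 21.2 CPM in KO-Guanabenz, against 18.2, 15.9 and 16.3 CPM in KO-Control. Neither gene's groups overlapped, as with the chains and Ciita, where 9.09% of all genes lay wholly higher in KO-Guanabenz. Ifng, the cytokine gene at the head of the route, differed by 0.81 (SE 0.47), at low levels and with groups that overlapped. It had 0.524, 1.21 and 0.433 CPM in KO-Guanabenz, against 0.638, 0.256 and 0.353 CPM in KO-Control. Rfx5, which encodes a subunit of the X box factor, differed by 0.07 (SE 0.08).

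Marchf1 encodes a ubiquitin ligase that removes class II molecules from the surface of antigen presenting cells. It was the only 1 of the 29 tested list genes called in any comparison by edgeR. The call was in KO-Clonidine against WT-Clonidine, where 2.5% of all genes were called. Marchf1 had 29.4, 29.2 and 27.2 CPM in KO-Clonidine, against 37.9, 34.6 and 36.4 CPM in WT-Clonidine. The groups did not overlap, where 12.8% of all genes lay wholly lower in KO-Clonidine. Marchf1 was lower by 0.34 on the log2 scale there (SE 0.09, edgeR adjusted p = 0.045), in the same comparison in which all class II genes stood below 0. The KO-Clonidine mean of 28.6 CPM lay near those of WT-Control (28.9 CPM) and KO-Control (29.7 CPM), while WT-Clonidine had a mean of 36.3 CPM. WT-Clonidine did not overlap WT-Control either, where 11.1% of all genes lay wholly higher in WT-Clonidine, and that difference was not called. Over the alternative settings its adjusted p ran from 0.0058 with DESeq2 to 0.16 without KO-Clonidine 3, and the call was lost when any 1 of the 6 clonidine libraries was left out. WT-Guanabenz had 37.2, 40.4 and 40.0 CPM of Marchf1, WT-Control had 25.7, 32.4 and 28.6 CPM, and this difference of 0.44 (SE 0.09, edgeR adjusted p = 0.14) was not called. KO-Guanabenz had 37.2, 37.4 and 33.2 CPM and KO-Control 26.8, 32.5 and 29.7 CPM, a difference of 0.28 (SE 0.09, edgeR adjusted p = 0.17). In that comparison too the groups did not overlap, where 9.09% of all genes lay wholly higher in KO-Guanabenz.

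Ctsd, which encodes the endosomal protease cathepsin D, had negative log2 differences under both drugs in WT hosts. It had 1133, 992 and 898 CPM in WT-Clonidine, against 1356, 1250.0 and 1263 CPM in WT-Control. The log2 difference was -0.36 (SE 0.11, edgeR adjusted p = 0.18), and that of WT-Guanabenz against WT-Control was -0.39 (SE 0.11, edgeR adjusted p = 0.22). The genotype difference of the clonidine effect was 0.53 for Ctsd (SE 0.15, edgeR adjusted p = 0.40) and -0.38 for Marchf1 (SE 0.12, edgeR adjusted p = 0.43), and neither was called.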

How the data were processed

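Bulk RNA of 18 tumour libraries was analysed. Per the submitters' processing notes, the authors trimmed reads with Trim Galore 0.6.5 and obtained estimated counts with kallisto 0.46.0 on GRCm38. All deposited values are whole; how transcripts were summed to genes, and strandedness, are not given in the sources used here. Of 21015 identifiers 20994 matched a RefSeq symbol, and the 21 others stayed in the fit. Library totals of 54.7 to 491.1 in units of 1e6 make counting error small for most members, and the spread between libraries sets the precision.

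filterByExpr (minimum count 10) kept 16125 genes. After TMM scaling, edgeR 4.0.16 under R 4.3.3 estimated 6 group means from all libraries, with two-sided quasi-likelihood tests, Benjamini-Hochberg adjustment within each comparison and calls at an adjusted p under 0.05. Counts were simulated for WT-Clonidine against WT-Control, with 16017 genes tested. Of genes changed by 1 on the log2 scale 69% were recovered, and of those changed by 2, 89.8%. The changed genes were drawn at random, each with its own spread, so these shares do not give the power for the members. In the real comparison the chains, Cd74 and Ciita had SE of 0.37 to 0.41. Likeness used log2 CPM with a prior count of 2. DESeq2 1.42.0, limma 3.58.1 (voom with quality weights), other scalings and filters, a replicate block and leaving out libraries were the alternatives. No 2 libraries of the same group agreed within sampling noise.

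Members, lists and settings were chosen with earlier results of these data known. Named were all members, the list genes called or with the smallest p, Adra2a, and the 5 genes most like the members; of the pathway genes in the text, Ifng and Rfx5 in KO-Guanabenz against KO-Control, and Ctsd and Marchf1 outside the comparisons where they were called or had the smallest p, were added after their values were seen. Ifi30 and Xcr1 were not analysed here. Some results are not reported here.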

Additional observations from a re-analysis of the deposited data

How the results depend on the processing

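Members called stayed at 0 in 183 of 185 values from alternative settings. The exceptions, both in KO-Clonidine against WT-Clonidine, were 2 members with limma voom with quality weights and a range of 0 to 2 when 1 library was left out. The median over the members kept within 1 SD between libraries of the value reported in 181 of 185. That SD was 0.381, wider than most of the medians, so this count includes changes of sign. An example is WT-Guanabenz against WT-Control, at 0.26 and at -0.06 without WT-Guanabenz 3. With the KO-Guanabenz libraries read as KO-Control, as their treatment entry has it, the median was -0.59 in KO-Clonidine against KO-Control. It was then 0.27 in KO-Control against WT-Control and -0.90 for the genotype difference of clonidine. For the genotype difference of guanabenz it ran from 0.15 to 0.72 when 1 library was left out.

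Single members changed sign when 1 library was left out where differences were small or groups wide. In WT-Guanabenz against WT-Control the log2 differences ran from -0.02 to 0.85 for H2-Aa, -0.06 to 0.72 for H2-Ab1, -0.05 to 0.83 for H2-Eb1, -0.04 to 0.80 for Cd74, -0.11 to 0.18 for H2-DMa and -0.07 to 0.45 for H2-DMb1. In WT-Clonidine against WT-Control H2-Ob ran from -0.13 to 0.10. H2-Oa in KO-Clonidine against WT-Clonidine ran from -0.88 to 0.01, and H2-DMb2 in KO-Guanabenz against KO-Control from -0.01 to 0.12. For the genotype difference of clonidine H2-DMa ran from -0.28 to 0.02 and H2-Ob from -0.04 to 0.19; H2-Ob was also -0.03 with total count scaling and -0.26 with KO-Guanabenz read as KO-Control. The cause was not tested. Same-numbered libraries of different groups did not deviate together (median r 0.01 over 45 pairs, -0.33 to 0.25), so numbers were not taken to pair them. With a replicate block 0 members were called in the 11 comparisons and none reversed. Depth limits H2-Oa most, with 19 to 292 counts per library.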
